A study of Mus musculus with 7 samples.

Results

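Cytotoxic lymphocytes carry a small set of genes by which they can be told from other cells of a tissue, and 10 of these genes were followed here through the mouse mammary gland: Gzma, Gzmb, Prf1, Nkg7, Ccl5, Ncr1, Klrb1c, Cd3e, Cd3g and Cd8a. They were taken by symbol, 10 of the 27998 genes of a single-cell RNA count matrix, and each was present as a single row. The matrix held 13684 cells of 13 cell types, named by the authors, and the genes were read cell by cell in the 40 NK cells and the 60 T and B cells, together 0.731% of the cells, and mouse by mouse in the other types. The mice were virgin females of a mixed FVB, 129 and C57BL/6J background, all in diestrus. The young group (Young A, B and C) was 3 to 4 months old and the aged group (Aged A, B, C and D) 13 to 14 months old, with no treatment in either. Abdominal glands were digested after removal of the lymph node, and each mouse gave 1 library of 10x 3′ reads. The mice had 1264 to 2865 cells and 6652599 to 16999625 unique molecular identifiers (UMIs, each a counted RNA molecule) in total. Age group and the way the libraries were processed cannot be told apart, since the cell barcodes of the young and aged libraries are written in different formats. Cell barcodes found in more than 1 library belonged to 202 cells, 3 of them lymphocytes.

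NK cells and CD8+ T cells kill target cells by releasing granules, in which perforin opens a way through the membrane and granzymes, which are serine proteases, cut proteins inside the target. NK cells decide on killing through germline receptors such as NKp46 and NK1.1, whereas T cells use a rearranged receptor that signals through the CD3 chains, with CD8 as co-receptor for MHC class I. Both cell types store and secrete the chemokine CCL5, which draws further leukocytes into a tissue.

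In the GRCm38 assembly (GENCODE annotation, strand given by sign), the 10 genes lie on 7 chromosomes. Gzma is at chr13:113093825-113100981 (−), Gzmb at chr14:56258838-56262260 (−), Prf1 at chr10:61297833-61304680 (+) and Nkg7 at chr7:43437073-43438249 (+). Ccl5 is at chr11:83525778-83530518 (−). Ncr1 is at chr7:4337724-4345164 (+) and Klrb1c at chr6:128778485-128789215 (−). Cd3g at chr9:44969572-44980431 (−) and Cd3e at chr9:44998740-45009627 (−) flank Cd3d, which starts 1354 bases from Cd3g and ends 11400 bases from Cd3e. Cd8a is at chr6:71373427-71379173 (+). Gzma, Gzmb and Klrb1c belong to families of similar genes, so reads from a near-identical copy could have been counted with them.

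RefSeq promoters, the 250 bases before an annotated transcription start, were at hand for 9 of the 10 genes, Ccl5 being without an entry. The 6 letters TGTGGT, which RUNX factors are known to bind, occurred on either strand (as TGTGGT or ACCACA) in 6 of the 9: Gzma, Gzmb, Prf1, Nkg7, Ncr1 and Klrb1c, the granule and NK receptor genes. They did not occur in Cd3e, Cd3g or Cd8a, and 14.0% of all 32851 promoters of this length held them. The promoters of 2 granzymes and 1 NK receptor are shown beside that of a CD3 chain to let the letters be compared, each from 5′ to 3′ on the strand of its gene, with these letters in capitals. They come from chr13:113100982-113101231 (−), chr14:56262335-56262584 (−), chr7:4337465-4337714 (+) and chr9:45009612-45009861 (−) of GRCm38.p6, in this order.
Gzma: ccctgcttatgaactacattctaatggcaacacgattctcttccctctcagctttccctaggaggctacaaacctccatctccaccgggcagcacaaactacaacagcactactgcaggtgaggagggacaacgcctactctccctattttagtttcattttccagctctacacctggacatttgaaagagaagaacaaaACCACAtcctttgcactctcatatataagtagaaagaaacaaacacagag
Gzmb: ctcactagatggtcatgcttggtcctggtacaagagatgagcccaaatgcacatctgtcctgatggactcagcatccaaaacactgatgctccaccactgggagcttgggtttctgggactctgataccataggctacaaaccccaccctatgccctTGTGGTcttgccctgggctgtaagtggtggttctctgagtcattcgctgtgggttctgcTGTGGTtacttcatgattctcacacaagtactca
Ncr1: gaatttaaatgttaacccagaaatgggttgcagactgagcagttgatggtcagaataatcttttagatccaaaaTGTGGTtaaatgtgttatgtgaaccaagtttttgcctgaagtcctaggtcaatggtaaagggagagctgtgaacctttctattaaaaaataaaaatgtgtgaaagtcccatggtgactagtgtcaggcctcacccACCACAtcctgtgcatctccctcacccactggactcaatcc
Cd3e: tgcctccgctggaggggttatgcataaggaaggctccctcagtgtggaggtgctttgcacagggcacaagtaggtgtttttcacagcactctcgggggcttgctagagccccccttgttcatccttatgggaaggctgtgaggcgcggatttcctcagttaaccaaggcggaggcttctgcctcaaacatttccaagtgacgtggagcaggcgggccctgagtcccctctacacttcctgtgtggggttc
Gzma had 1 match, 50 bases before the start, and Gzmb had 2, at 93 and 34 bases before it. The 3 other strings searched, on both strands, were TGACGT (held by Cd3e and Prf1, and by 6.47% of all promoters), AGGAAG (Cd3e, Klrb1c, Nkg7 and Prf1, 29.5%) and CAGGTG (Cd3g, Gzma and Prf1, 17.2%). All 4 strings were chosen after the promoters had been read, and a match is a run of letters and not a shown binding site.

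Lymphocytes, less than 1 in 100 of the cells, held most of the UMIs of this set of genes in the whole series. They held 91.4% of the 350 Gzmb UMIs, 89.8% of the 59 Ncr1 UMIs, 88.8% of the 1293 Gzma UMIs, 87.1% of the 31 Klrb1c UMIs and 84.6% of the 849 Nkg7 UMIs. The T cell genes followed with 77.7% of 394 UMIs for Cd3g, 76.8% of 203 for Cd3e and 75.0% of 56 for Cd8a. Prf1 had only 3 UMIs in the series, 2 in T and B cells and 1 in a fibroblast. Ccl5 was the most abundant and the least restricted of the set, since lymphocytes held 50.1% of its 7521 UMIs, AV (alveolar) luminal cells 15.2%, dendritic cells 12.6% and Mb macrophages 8.95%. The 2 lymphocyte types had been named by the authors from clusters of these same cells, with Gzma and Ncr1 among the NK cell markers and CD3 genes among those of T cells, so differences between the types are given as a description and were not tested.

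**Figure D1:**
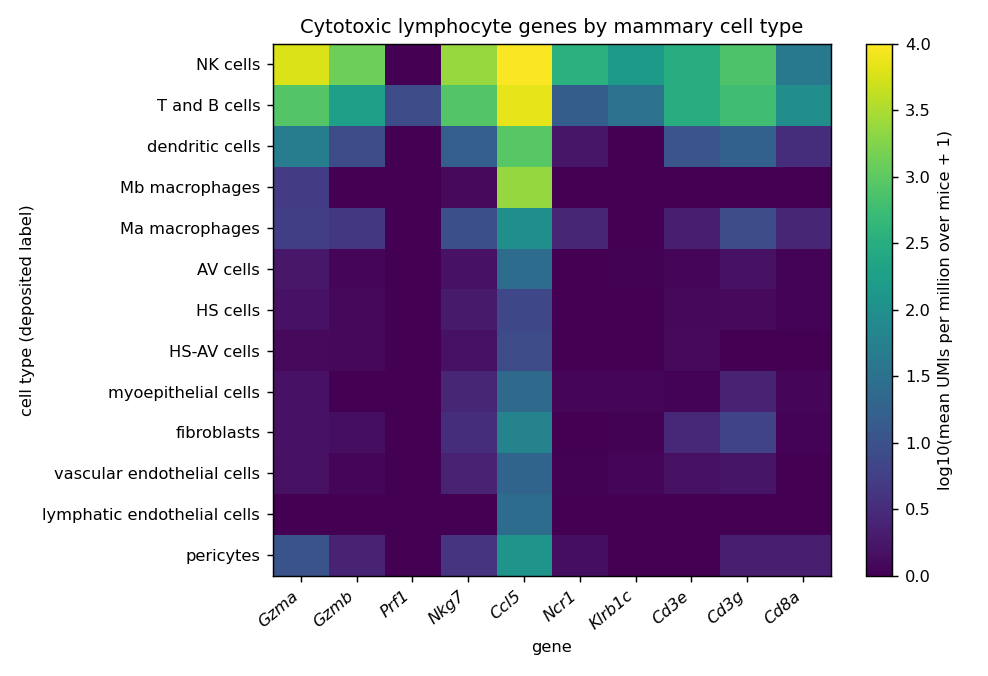
Mean level of each of the 10 genes (columns) in each of the 13 cell types (rows), as log10 of the mean over mice of CPM plus 1, shown by colour. NK cells and T and B cells stand out in 9 columns, Prf1 is at or near 0 in every row but that of T and B cells (7.38 CPM), and Ccl5 is also seen in Mb macrophages and dendritic cells.

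Levels are given as CPM, the UMIs of a gene per 1000000 UMIs of the cells of a type summed within a mouse, and means are over the mice with at least 3 cells of the type. The granule protease Gzma was highest in NK cells with 6094 ± 5520 CPM (SD, n = 5 mice), followed by T and B cells with 858 ± 1270 CPM (n = 7) and dendritic cells with 46.1 ± 62.9 CPM (n = 5). Gzmb had 1318 ± 1052 CPM in NK cells and 179 ± 128 CPM in T and B cells, and Nkg7, a granule membrane protein needed for release, 2421 ± 870 and 837 ± 417 CPM. For each of these 3 genes the lowest NK level of a mouse and the highest T and B level can be set side by side: 2406 and 3555 CPM for Gzma, 155 and 365 CPM for Gzmb, and 1720 and 1454 CPM for Nkg7. Thus the 2 types overlapped over mice for both granzymes and did not for Nkg7.

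The activating receptor Ncr1 (NKp46) had 362 ± 310 CPM in NK cells and 14.4 ± 29.6 CPM in T and B cells, where 5 of 7 mice had none. Klrb1c (NK1.1) had 149 ± 120 and 29.8 ± 44.0 CPM. No other type exceeded a mean of 1.69 CPM for either receptor. The CD3 chains did not separate the types by level: Cd3e had 306 ± 257 CPM in NK cells and 311 ± 65.4 CPM in T and B cells, and Cd3g 769 ± 330 and 589 ± 294 CPM. Cd8a had 40.7 ± 58.8 CPM in NK cells and 93.0 ± 92.6 CPM in T and B cells. For Cd3e, Cd3g and Cd8a the difference of the means was thus smaller than the SD of either type.

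Shares of cells with at least 1 UMI gave the same order for the granule genes. Gzmb was found in 77.5% of NK cells (95% Wilson interval 62.5 to 87.7%) and 18.3% of T and B cells (10.6 to 29.9%), and Gzma in 60% (44.6 to 73.7%) and 16.7% (9.31 to 28.0%). Nkg7 was found in 97.5 and 68.3%, and Ccl5 in 87.5 and 71.7%. The median depth was 4224 UMIs per NK cell and 4391.5 per T and B cell, against 6270 in epithelial cells. The epithelial cells should lack Gzmb, Gzma and Nkg7, and 0.112, 0.438 and 0.449% of them had these genes. For Ccl5 the epithelial share was 4.55%. This is not taken as a background, since 28 of the 4820 AV cells had at least 10 Ccl5 UMIs. After each cell had been thinned to 2000 UMIs, for which 0 cells were too shallow, the NK and T and B shares were 62.5 and 15.0% for Gzmb, 52.5 and 13.3% for Gzma, 92.5 and 51.7% for Nkg7, and 85.0 and 71.7% for Ccl5. Both lymphocyte types thus lay far above the epithelial share for each of these genes at either depth. Intervals and limits cover counting error only.

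Prf1, which encodes perforin, was hardly captured in these libraries, with 3 UMIs in 13684 cells. It was found in 0 of 40 NK cells, which allows up to 7.5% of cells with a UMI, and in 2 of 60 T and B cells (3.33%), each with 1 UMI. This limits the cells with a UMI and not the cells that express Prf1, and nothing can be said of how its level varied.

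Receptors were detected in fewer cells. Ncr1 was found in 42.5% of NK cells and 3.33% of T and B cells, Klrb1c in 25.0 and 6.67%, with 0.0112 and 0.0225% of epithelial cells. Most of these cells had a low count, and with at least 2 UMIs required the NK shares were 22.5% for Ncr1 and 12.5% for Klrb1c. Cd3e was found in 40.0% of NK cells and 70% of T and B cells, Cd3g in 45.0 and 76.7%, and Cd8a in 12.5 and 23.3%. Thinned to 2000 UMIs, these were 35.0 and 45.0% for Cd3e, 40 and 60% for Cd3g, and 10.0 and 13.3% for Cd8a, and the gap between the types was narrower for all 3 genes at this lower depth.

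The NK cell label held cells of more than 1 kind by these genes. Of the 40 NK cells, 15 had an NK receptor (Ncr1 or Klrb1c) without Cd3e or Cd3g, 13 had a CD3 chain without a receptor, 5 had both and 7 had neither. The CD3 counts in them were mostly above 1 UMI: all 16 NK cells with Cd3e also had Cd3g, 17 of the 18 with Cd3g had at least 2 of its UMIs, and the median among the 18 was 7.5 UMIs, against 3 in the T and B cells with Cd3g. The 5 NK cells with Cd8a all had both chains. The label NK cell is therefore kept here as the name of a cluster, of which 45.0% (30.7 to 60.2%) carried CD3 and 50% (35.2 to 64.8%) an NK receptor. Of the other NK markers, Klrk1 was found in 67.5% of the cells, Klrd1 in 57.5%, Klre1 in 50% and Eomes and Itgae in 22.5% each. T cell receptor constant genes were not analysed here.

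Granule genes were present on both sides of this division. A granzyme was found in 14 of the 15 NK cells with a receptor only, in 10 of the 13 with CD3 only, in 4 of the 5 with both and in 6 of the 7 with neither. Summed over cells, Gzma had 7242 CPM in the receptor-only cells and 4125 CPM in the CD3-only cells, whereas Gzmb had 1112 and 2087 CPM. Nkg7 had 3336 and 1925 CPM and Ccl5 13544 and 6179 CPM. Cells of the 2 ages entered these sums unequally: in the young mice the CD3-only cells had 487 CPM of Gzma (8 cells) and the receptor-only cells 3880 CPM (10 cells), and in the aged mice they had 9521 and 14751 CPM (5 cells each). These sums come from few cells of few mice and were not tested.

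The cluster named T and B cells consisted mostly of cells with T cell genes. At least 1 of Cd3d, Cd3e and Cd3g was present in 51 of the 60 cells (85.0%), Cd8a in 14, Cd8b1 in 13 and Cd4 in 7. Of the B cell genes, Cd79b was found in 3 cells, Cd79a in 2 and Ms4a1 in 0 of 60 cells, which allows up to 5.00%. A granzyme was found in 15 of the 60 cells (25.0%, 15.8 to 37.2%), of which 11 had CD3 without an NK receptor. Of the 10 cells with Gzma all had Ccl5, 9 had Nkg7 and 3 had Cd8a. An NK receptor without CD3 was seen in 3 cells, and these had 4156 CPM of Gzma against 384 CPM in the 48 cells with CD3 only. Nkg7 and Ccl5 were more widely shared, and 38 of the 60 cells had both.

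**Figure D2:**
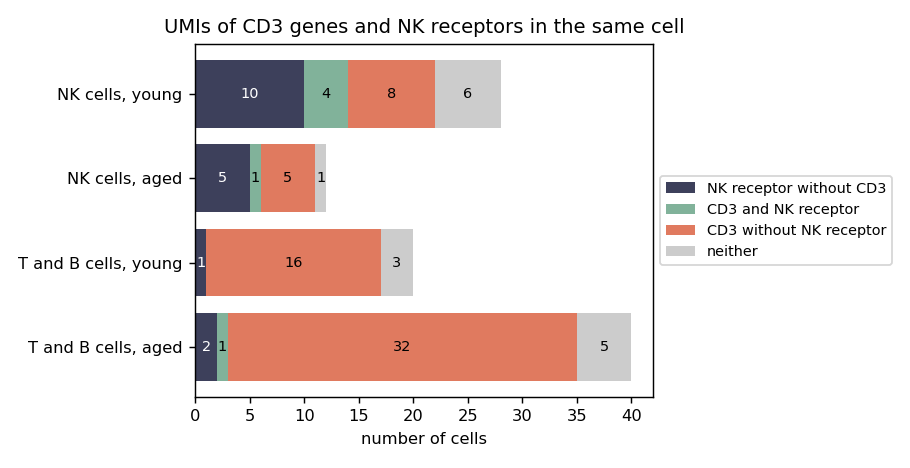
Number of NK cells and of T and B cells (bars, by age group) in 4 classes by whether the cell had a UMI of Cd3e or Cd3g and of Ncr1 or Klrb1c. Among the 40 NK cells 15 had a receptor only and 13 CD3 only, and among the 60 T and B cells 48 had CD3 only.

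Ageing was then examined in each lymphocyte type with the mouse as replicate. Aged C and Aged D had 1 NK cell each and did not enter the NK comparison, which rests on 28 cells of 3 young mice and 10 cells of 2 aged mice. Gzma in NK cells was at 2837, 3252 and 2406 CPM in Young A, B and C and at 15554 and 6423 CPM in Aged A and B. Ncr1 was at 172, 155 and 108 CPM in the young and 566 and 808 CPM in the aged mice. Klrb1c was at 86.0, 77.4 and 40.5 CPM against 330 and 213 CPM. For these 3 genes, as for Cd3g, both aged mice lay above all young mice.

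The single NK cells of Aged C and D had 19594 and 9998 CPM of Gzma, also above the young mice. Ncr1 had 0 UMIs in the cell of Aged C and 1 in that of Aged D, and Klrb1c 0 in both. Gzmb was at 774, 155 and 1500.1 CPM in the young and 2969 and 1191 CPM in the aged mice, and Nkg7 at 1720, 2090 and 2689 against 3818 and 1786 CPM, so the groups overlapped. Ccl5 was at 4277, 7200 and 3973 CPM in the young and at 26914 and 5827 CPM in Aged A and B, of which Aged B lay inside the young range. The single cells of Aged C and D had 15675 and 40673 CPM of Ccl5. Of the CD3 chains, Cd3g was at 430, 465 and 770 CPM against 990 and 1191 CPM, without overlap, and Cd3e at 322, 155 and 284 against 47.1 and 723 CPM, with overlap. Cd8a was at 21.5, 0 and 40.5 CPM in the young and 141 and 0 CPM in the aged NK cells.

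No gene of the set passed the test in NK cells. Of the 10 genes 6 had enough counts to be tested, and 0 of these 6 passed an adjusted p of 0.05 with a change of at least 1.5-fold in edgeR's quasi-likelihood test, against 0.820% of all 366 genes tested. All 6 were higher in the aged mice in log2 fold change, with a median of 1.59 against 0.02 over all genes, 4 had an unadjusted p below 0.05, and DESeq2 called 1, Gzma. The count filter keeps a gene that reaches a set level in as many mice as the smaller group holds. Ncr1 reached that level in the aged mice only and so entered these figures through the group where it was high. Ncr1 had a log2 fold change of 2.32 ± 0.47 (SE, adjusted p = 0.136), Gzma 2.08 ± 0.42 (adjusted p = 0.136), Ccl5 1.84 ± 0.63 (adjusted p = 0.324) and Gzmb 1.35 ± 0.74 (adjusted p = 0.551). Cd3g had 1.01 ± 0.40 (adjusted p = 0.406) and Nkg7 0.48 ± 0.40 (adjusted p = 0.757). The outcome depended on single mice. Without Young A, Ncr1 passed (2.54, adjusted p = 0.0441). Leaving out either aged mouse left 1 aged mouse with 5 cells, assumed to vary like the young mice. Without Aged A the log2 fold change was 0.23 for Ccl5, 0.44 for Gzmb and 1.21 for Gzma, none of which passed, and without Aged B it was 2.59 for Ccl5 (adjusted p = 0.0115) and 2.63 for Gzma (adjusted p = 0.0102). The fit with the label letter as a block called Gzma, Gzmb and Ccl5. In that fit Young C is alone in its block, so little is left to measure the spread between mice.

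Other markers moved with age in the same NK cells. The summed level of 4 alveolar milk genes (Csn3, Trf, Wfdc18 and Mfge8), all 4 detected, was 0 to 324 CPM in the young and 848 to 6380 CPM in the aged mice, and that of the 2 division genes Mki67 and Top2a was 43.0 to 619 CPM in the young and 0 in the aged mice. Division genes were found in 12 of 28 young and 0 of 12 aged NK cells. Median depth was 4238 UMIs in young and 3675 in aged NK cells. The part of these markers in the values above was not tested.

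In the T and B cells all 7 mice entered, with 20 young and 40 aged cells. Cd3e was at 296, 190 and 280 CPM in Young A, B and C and at 388, 341, 316 and 365 CPM in Aged A to D, so that every aged mouse was above every young mouse by a small margin. Cd3g was at 1005, 917 and 344 CPM against 436, 633, 197 and 590 CPM, and Cd8a at 0, 285 and 86.1 CPM against 32.3, 73.1, 118 and 56.2 CPM. Both overlapped between the ages.

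Granule genes spread widely between mice of the same age in this cluster. Gzma was at 0, 443 and 926 CPM in the young and at 0, 12.2, 3555 and 1067 CPM in the aged mice, with 3 cells holding 63.4% of its UMIs. Gzmb was at 59.1, 190 and 64.6 CPM against 48.4, 207, 316 and 365 CPM, and Nkg7 at 591, 1454 and 1119 CPM against 258, 1060, 474 and 899 CPM. Ccl5 was at 1124, 11887 and 3143 CPM in the young and at 4667, 8966, 4384 and 15394 CPM in the aged mice. The highest young mouse, Young B, thus exceeded 3 of the 4 aged mice for Ccl5.

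None of the 5 genes tested in T and B cells passed, against 0.656% of all 457 genes tested, and 0 of the 5 had an unadjusted p below 0.05 in edgeR or were called by DESeq2. The log2 fold changes were 1.16 ± 1.59 for Gzma (adjusted p = 0.755), 0.63 ± 0.70 for Ccl5 (adjusted p = 0.674), 0.48 ± 0.34 for Cd3e (adjusted p = 0.549), −0.63 ± 0.48 for Cd3g (adjusted p = 0.554) and −0.66 ± 0.50 for Nkg7 (adjusted p = 0.554). Cd3e fell short of the count filter's level in Young B and Young C, so it entered this test through the aged mice. The direction for Gzma turned without Aged C and D, with a log2 fold change of −5.73, an alternative chosen after the data were seen. Markers of other cells moved here too: the milk gene sum was 59.1 to 646 CPM in young and 658 to 10900 CPM in aged mice, and the endothelial sum (Pecam1, Cdh5, Eng and Fabp4) 366 to 5914 CPM in young and 0 to 161 CPM in aged mice. Their part in these values was not tested.

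With the NK and the T and B cells of a mouse summed as lymphocytes, 0 of 6 genes tested passed, against 1.70% of all 824 genes tested. In edgeR 1 of the 6 had an unadjusted p below 0.05, Gzma with a log2 fold change of 0.96 ± 0.43 (adjusted p = 0.272), and DESeq2 called 0. Ccl5 had 0.96 ± 0.48 (adjusted p = 0.312), Cd3e 0.47 ± 0.30 (adjusted p = 0.405), Gzmb 0.23 ± 0.48 (adjusted p = 0.835), Cd3g −0.14 ± 0.29 (adjusted p = 0.835) and Nkg7 −0.54 ± 0.32 (adjusted p = 0.384).

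**Figure D3:**
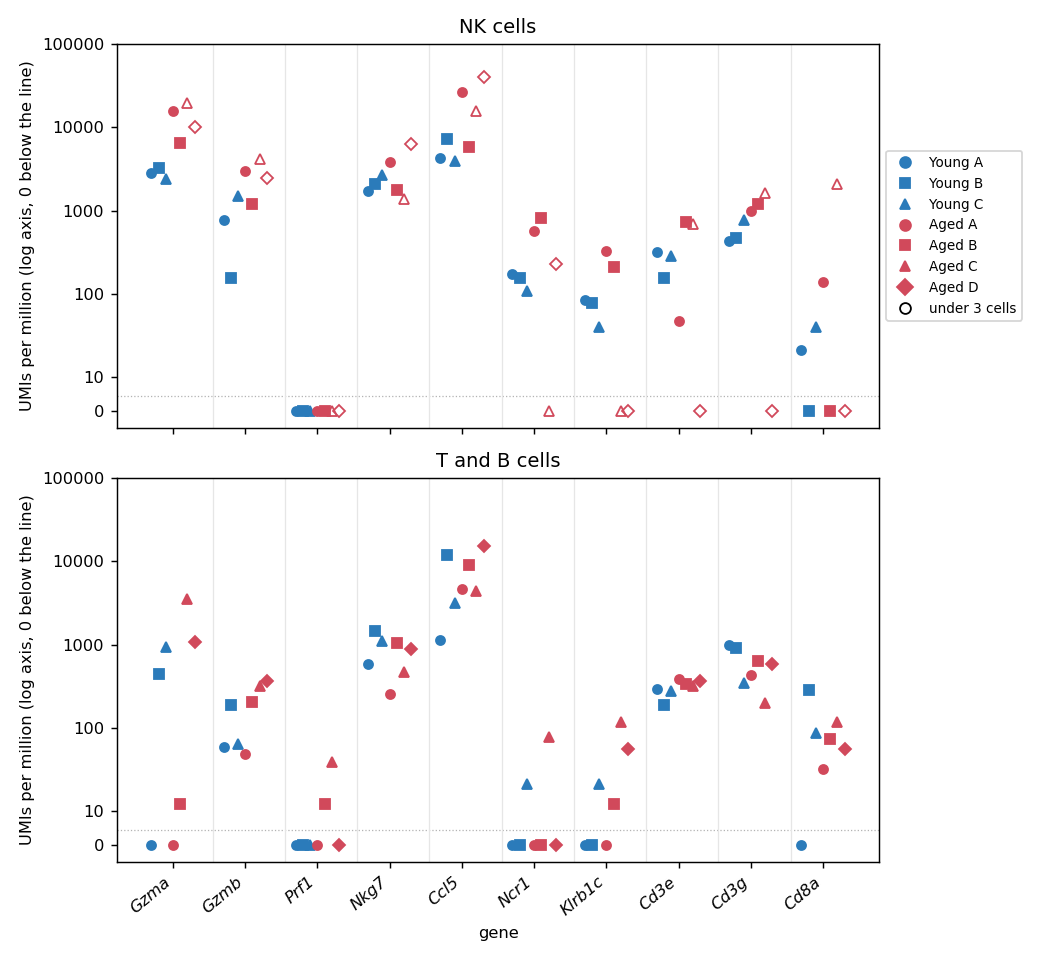
CPM of each of the 10 genes in NK cells and in T and B cells, 1 point per mouse, on a log axis with young and aged mice apart and open symbols for a mouse with fewer than 3 cells of the type. Gzma, Ncr1, Klrb1c and Cd3g of Aged A and B lie above the 3 young mice in NK cells, and in T and B cells only Cd3e separates the ages.

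The immune cells of a mouse were then summed. The 5 genes Gzma, Gzmb, Ccl5, Cd3e and Cd3g rose with age among all immune cells, from 3.93-fold for Cd3g to 8.14-fold for Gzma. Gzma was at 115, 227 and 251 CPM of immune UMIs in Young A, B and C and at 1378, 907, 2896 and 1163 CPM in Aged A to D. Gzmb was at 32.1, 37.4 and 111 CPM against 274, 269, 430 and 340 CPM. Ccl5 was at 523, 1700 and 870 CPM against 5293, 6184, 3955 and 11968 CPM. In each of the 3 the lowest aged mouse was above the highest young mouse.

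The CD3 chains showed the same separation, with Cd3e at 17.4, 34.3 and 38.8 CPM in the young and 108, 269, 182 and 184 CPM in the aged mice, and Cd3g at 33.0, 131 and 78.6 CPM against 203, 478, 199 and 298 CPM. Nkg7 was at 81.6, 240 and 254 CPM against 407, 770, 298 and 851 CPM, also without overlap. Thus 5 of the 6 genes tested passed, all higher in aged mice, against 7.47% of all 2745 genes tested, and the 6 had a median log2 fold change of 2.53 against −0.05 over all genes. Cd3e, Cd3g and Gzmb would not have met the count filter on the young mice alone. They entered the test through the aged mice, where they were high, which bears on the number passed and on the median. The log2 fold changes were 3.03 ± 0.46 for Gzma (adjusted p = 0.00484), 2.80 ± 0.50 for Ccl5 (adjusted p = 0.00971), 2.66 ± 0.41 for Cd3e (adjusted p = 0.00502), 2.40 ± 0.45 for Gzmb (adjusted p = 0.0117) and 1.98 ± 0.48 for Cd3g (adjusted p = 0.0337) by edgeR, n = 3 and 4 mice. Nkg7 had 1.65 ± 0.49 and did not pass (adjusted p = 0.0673), whereas DESeq2 called all 6. The calls of Gzma, Ccl5 and Cd3e held in 15 of 15 alternative settings, that of Gzmb in 14 and that of Cd3g in 10. Among the 15, the minimum of 10 cells per mouse dropped no mouse here. Taking away the fold minimum could only add calls, so neither setting could undo a call. Cd3g was lost without Young A (adjusted p = 0.0846), Young C (0.0970), Aged B (0.0821) or Aged D (0.0641), and Gzmb and Cd3g were lost without both Aged C and D (0.0894 and 0.107), an alternative chosen after the data were seen.

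Ncr1, Klrb1c, Cd8a and Prf1 had too few UMIs for the test. Ncr1 was at 7.81, 6.23 and 10.4 CPM in young and 49.8, 113, 33.1 and 14.2 CPM in aged immune cells, and Klrb1c at 3.47, 3.11 and 3.79 CPM against 29.1, 35.8, 49.6 and 28.4 CPM. Neither overlapped between the ages, while Cd8a, at 2.60, 31.1 and 6.63 CPM against 20.8, 35.8, 199 and 28.4 CPM, did. With no filter on low counts all 3 passed. Over the alternatives in which edgeR tested them, Ncr1 passed in 2 of 5, Cd8a in 1 of 2 (adjusted p up to 0.481) and Klrb1c in 1 of 1. Aged C held 12 of the 25 Cd8a UMIs of aged immune cells.

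The make-up of the immune cells differed between the ages as well. Lymphocytes were 5.96, 15.5 and 11.5% of the immune cells in Young A, B and C and 40.0, 68.6, 50 and 63.6% in Aged A to D, whose immune cells numbered 40, 35, 10 and 11 against 218, 71 and 209 in the young mice. NK cells were 5.34 ± 2.01% of immune cells in young and 11.5 ± 2.37% in aged mice, and T and B cells 5.64 ± 4.97% and 44.1 ± 13.0%. In an exact two-sided permutation test over the 35 divisions of the mice, whose smallest possible p is 0.0286, NK cells had p = 0.0286 and T and B cells p = 0.0571, both 0.0571 after adjustment over the 2 shares. Set against every cell of a mouse, NK cells were 0.399 ± 0.161% in young and 0.156 ± 0.112% in aged mice (permutation p = 0.0857), and T and B cells 0.363 ± 0.239% and 0.510 ± 0.200% (permutation p = 0.400). The aged mice thus had higher sums over immune cells and also a larger lymphocyte share of fewer immune cells. Within lymphocytes none of the 6 genes passed, with log2 fold changes from −0.54 (Nkg7) to 0.96 (Gzma). In Mb macrophages Ccl5 had 3.76 and passed. The part of the cell shares in the rise was not tested.

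**Figure D4:**
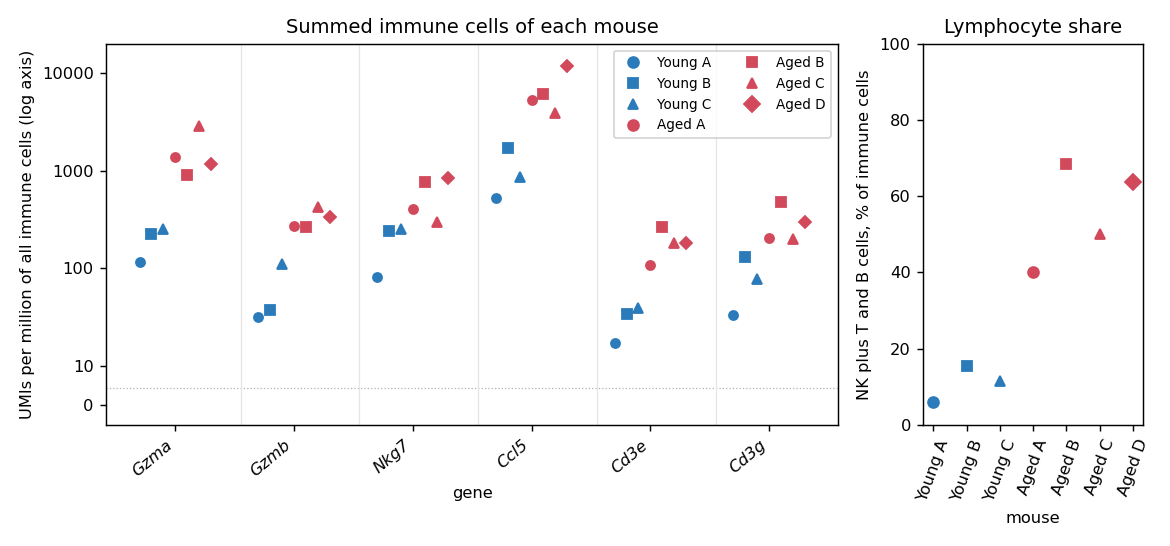
CPM of the 6 genes tested, summed over all immune cells of a mouse on a log axis, with the lymphocyte share of immune cells beside them, 1 point per mouse. All 4 aged mice lie above all 3 young mice in each panel, with lymphocyte shares of 40.0 to 68.6% against 5.96 to 15.5%.

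Where the immune UMIs came from differed between genes. Lymphocytes held 86.8% of the immune Gzma UMIs in young and 99.7% in aged mice, and 94.3 and 99.7% of those of Nkg7. For Ccl5 they held 54.5 and 77.8%, the rest being in dendritic cells and macrophages.

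Other genes of the same pathways were read from 6 lists with 87 genes, of which 80 were in the matrix. Over all immune cells 35 of them were tested, 10 rose and 0 fell with age, against the 7.47% of all genes called in either direction, with a median log2 fold change of 1.51 against −0.05 over all genes. The 10 would not have met the count filter on the young mice alone (Klrg1 was at 0 to 5.21 CPM there). They entered through the aged mice, so the counts of 10 and 0 are no measure of direction for the lists. The share called, the median and the counts per list that follow carry the same limit. In the T cell receptor list 5 of 7 tested genes rose: Cd6 by 3.42 ± 0.62 (adjusted p = 0.0105), the co-stimulatory receptor Cd28 by 2.86 ± 0.59 (0.0169), Cd3d by 2.34 ± 0.60 (0.0386), the kinase Lck by 2.07 ± 0.47 (0.0248) and the adaptor Lat by 2.05 ± 0.50 (0.0331). Klrg1, an inhibitory receptor of mature NK and effector T cells, was the only 1 of 7 NK receptor and adaptor genes to rise, by 3.91 ± 0.61 (0.00508). Of the regulators and homing genes 3 of 10 rose, the chemokine receptor Cxcr6 by 3.28 ± 0.73 (0.0233), Rora by 2.36 ± 0.59 (0.0369) and the kinase Txk by 2.35 ± 0.62 (0.0445). Of the granule genes the protease Ctsw alone of 6 rose, by 1.84 ± 0.48 (0.0424). Of the 4 cytokines and chemokines tested, 0 passed. Within lymphocytes, NK cells and T and B cells, 0 of 22, 0 of 11 and 0 of 8 list genes passed by edgeR, where 1.70, 0.820 and 0.656% of all genes did.

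The genes were also summed over all cells of a mouse. Fewer cells of a type and less RNA per cell cannot be told apart in such sums. Ccl5 alone of 6 genes tested passed, higher in aged mice, against 32.7% of all 12983 genes tested, so that calls were no more frequent in the set than over all genes. Ccl5 was at 71.4, 95 and 65.1 CPM in the young and at 170, 82.1, 81 and 90.0 CPM in the aged mice, which overlap, with Aged A apart from the rest. Its log2 fold change was 0.79 ± 0.27 (edgeR, adjusted p = 0.0444), and without Aged A it was 0.46 (adjusted p = 0.0742). The call was also lost without Young A (adjusted p = 0.127), Young C (0.113), Aged C (0.0503) or Aged D (0.0681) and with the label letter as a block (0.130). The other 5 had log2 fold changes from −0.70 (Nkg7) to 0.51 (Gzma). Of the list genes, the chemokine receptor Ccr1, to which CCL5 binds, fell by 3.14 ± 0.60 on the log2 scale over all cells (adjusted p = 0.00526).

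Outside the lymphocytes Ccl5 had the highest mean of the set in each of the 11 other cell types. After NK cells (9638 ± 9743 CPM, n = 5) and T and B cells (7081 ± 5162 CPM, n = 7) came Mb macrophages (2339 ± 2148 CPM, n = 7) and dendritic cells (901 ± 1040 CPM, n = 5), and in this order each step was smaller than the SD of the higher type. The order over all mice mixes the ages in unequal numbers, and in the 3 young mice alone dendritic cells (619 ± 331 CPM) stood above Mb macrophages (361 ± 255 CPM), and T and B cells (5385 ± 5721 CPM) above NK cells (5150 ± 1782 CPM). Pericytes (117 ± 244 CPM), Ma macrophages (96.0 ± 115 CPM, n = 3), fibroblasts (60.1 ± 94.6 CPM), lymphatic endothelial cells (25.1 ± 56.1 CPM, n = 5), AV cells (24.7 ± 26.9 CPM), myoepithelial cells (22.9 ± 15.0 CPM) and vascular endothelial cells (18.6 ± 20.3 CPM) followed, and HS-AV cells (7.63 ± 14.4 CPM, n = 6) and HS (hormone-sensing) cells (6.31 ± 3.79 CPM) were lowest, with n = 7 where not given. From pericytes downward, over all mice, each neighbouring pair differed by less than its SDs.

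Mb macrophages, a cluster of the authors that is set apart from the Ma macrophages, had more Ccl5 in aged mice. Ccl5 was at 78.9, 573 and 432 CPM in Young A, B and C and at 2725, 5443, 2323 and 4796 CPM in Aged A to D. All aged mice were above all young mice, although the aged mice gave only 9, 6, 4 and 3 Mb cells, against 90, 16 and 18. Cells with a Ccl5 UMI numbered 13 of 90, 5 of 16 and 6 of 18 in the young and 4 of 9, 6 of 6, 4 of 4 and 3 of 3 in the aged mice. Over the mice of an age these were 19.4 and 77.3% of the Mb cells, and 12.9 and 72.7% at 2000 UMIs per cell, against 4.55% of epithelial cells before thinning. That epithelial share includes AV cells with many Ccl5 UMIs and is no background. Ccl5, the 1 gene of the set with enough counts, passed (log2 fold change 3.76 ± 0.70, edgeR adjusted p = 0.0408), against 1.16% of all 859 genes tested in these cells. It fell short of the count filter's level in Young A, so it entered this test through the aged mice.

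This call depended on single mice. The log2 fold change stayed between 3.17 and 4.26 with any 1 mouse left out, but the adjusted p rose above the threshold without Young B (0.155), Young C (0.183), Aged A (0.0540), Aged B (0.0631), Aged C (0.0913) or Aged D (0.0699), and it was 0.250 without both Aged C and D. The remaining genes of the set were at or near 0 in the 146 Mb cells, with 3 UMIs of Gzma, 1 of Nkg7 and 0 of Gzmb, Cd3e and Cd3g. The NK marker sum over 9 genes was 0 to 13.0 CPM in the young and 0 to 13.1 CPM in the aged mice, with Ncr1, Klrb1c, Klre1, Klrk1, Eomes and Itgae at 0. The T cell marker sum over 7 genes was 0 to 13.5 and 0 to 116 CPM, with Cd3e, Cd3g, Cd8a and Cd28 at 0. The fibroblast sum was 52.1 to 626 CPM in young and 0 in aged Mb cells, and the epithelial sum 535 to 2654 and 82.0 to 501 CPM, and median depth was 5112 and 6490 UMIs.

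Dendritic cells had Ccl5 at 916, 263 and 677 CPM in Young A, B and C and at 2649 and 0 CPM in Aged A and B, the aged mice with at least 3 of these cells. Its log2 fold change of 1.26 ± 0.95 did not pass (edgeR adjusted p = 0.464, 0 of 1 gene tested at an unadjusted p below 0.05, 0 called by DESeq2), against 3.75% of all 1360 genes tested. Most of the UMIs came from few cells, as 12 of 226 dendritic cells had at least 10 Ccl5 UMIs and held 92.5% of them, and 3 of the 12 had Cd3e, Cd3g or Nkg7. Dendritic cells also held 57 Gzma UMIs, 56 of them in 3 young cells that each had Cd3e, Cd3g or Nkg7.

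AV cells, the milk-producing lineage of the luminal epithelium, had Ccl5 at 5.77, 5.40 and 8.68 CPM in the young and at 50.02, 21.4, 73.9 and 7.57 CPM in the aged mice, with Aged D inside the young range. The log2 fold change was 2.71 ± 0.76 and missed the threshold in edgeR (adjusted p = 0.0615), against 6.16% of all 11012 genes tested, and 1 of 1 had an unadjusted p below 0.05. It passed in DESeq2 (adjusted p = 0.00106), with no filter on low counts (0.0171), without Aged B (0.0433) and without Aged D (0.0161). AV cells with at least 10 Ccl5 UMIs were 28 of 4026 in the aged and 0 of 794 in the young mice. The median depth of AV cells was 6877.5 UMIs in aged and 5424.5 in young mice. Of the 28 cells 1 had Cd3e, Cd3g or Nkg7, against 0.703% of the AV cells with no Ccl5. The other genes of the set had 1 UMI in nearly every AV cell that had any, for example 23 UMIs of Gzma in 23 of 4820 cells.

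In the remaining types Ccl5 was the 1 gene tested and passed in none by edgeR, with 0 at an unadjusted p below 0.05 and 0 called by DESeq2. The log2 fold change was 1.44 ± 0.73 in fibroblasts (adjusted p = 0.299), against 3.17% of 5513 genes called, and 0.48 ± 0.80 in vascular endothelial cells (adjusted p = 0.690), against 26.7% of 7864. It was 0.24 ± 0.59 in HS cells (adjusted p = 0.856), against 6.26% of 8457, and −0.00 ± 0.38 in myoepithelial cells (adjusted p = 0.998), against 27.6% of 6740. No gene of the set had enough counts in pericytes, and the other types were not tested.

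Cells outside the lymphocyte clusters with a high Ccl5 count were examined for the other genes. At least 10 Ccl5 UMIs were found in 82 such cells, which held 75.9% of the Ccl5 UMIs outside lymphocytes, and 20 of the 82 (24.4%) had Cd3e, Cd3g or Nkg7, against 0.771% of the 12977 cells with no Ccl5. These 20 included 0 of 17 Mb macrophages, 1 of 28 AV cells, 3 of 12 dendritic cells, 5 of 9 fibroblasts, 3 of 7 myoepithelial cells and 3 of 4 pericytes. Of the 82 cells 0 had been called a doublet. Gzma at this count was found in 4 cells, 3 dendritic cells and 1 pericyte, and 4 of 4 had Cd3e, Cd3g or Nkg7.

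Genes whose levels over the 13 cell types were most like 3 of the set were listed as a description by Pearson's r of the mean log level, among 5292 genes. Gzma was nearest to Cst7 (r = 0.98), Shcbp1 (0.97) and Klre1 (0.97). Ccl5 was nearest to Il21r (0.97), Bin2 (0.95) and Tinf2 (0.95), and Cd3e to Gimap7 (0.99), Ctsw (0.98) and Fasl (0.98). The points share libraries, cells and depth, and no function is read from them.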

How the data were processed

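Single-cell RNA libraries (10x 3′ v2, 1 per mouse) of 3 young and 4 aged mouse mammary glands were analysed. Per the labels, reads were aligned to mm10 by Cell Ranger 2.0. The authors filtered cells on depth, gene number and mitochondrial content, clustered the others in Seurat and deposited unnormalized UMI counts together with a type for every cell. The fraction of mitochondrial UMIs and the cell cycle score deposited by the authors were not used for any comparison. All values here were computed from the counts, which are whole numbers without a length term. Barcodes, read without suffix, were shared between libraries by 202 cells. The members and gene lists were chosen with earlier results of these data known. The 10 members are always named. Genes of the 6 pathway lists are counted, and those called in a comparison may be named.

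Counts of a type were added up within each mouse where a mouse had at least 3 cells. Age was tested with edgeR 4.0.16 (TMM, filterByExpr, glmQLFit and glmQLFTest) in R 4.3.3 over all genes that passed the filter, with Benjamini-Hochberg adjustment over them, and a gene was called at an adjusted p below 0.05 and at least 1.5-fold. All immune cells are the NK, T and B, dendritic, Ma and Mb cells. The letters of the labels name different animals, so p-values measure the spread between mice. Shares of cells carry 95% Wilson intervals, 0 cells allow up to 3 cells of the total, and cells were thinned to 2000 UMIs with a fixed seed. Scrublet (in scanpy 1.11.5) called 140 of 13684 cells doublets (1.02%), 0 of them lymphocytes, and these cells were kept. DESeq2 1.42.0, RLE size factors, no filter, a minimum of 10 cells, no fold minimum, a replicate block, no doublets and leaving out each mouse were tried as alternatives. Leaving out Aged C and D, the aged mice with the fewest immune cells, was added after the data were seen. The procedure was also run on simulated counts with the same fixed spread for every gene. Sums of few cells need not follow that spread, so no result here rests on this run. Python 3.11.15 with numpy 2.4.6, scipy 1.17.1 and pandas 2.3.3 was used for the rest.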

Additional observations from a re-analysis of the deposited data

Results flagged for a closer look

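In a group of 4 mice a value stands apart when its gap to the nearest other exceeds Dixon's 95% critical share of the range. Such a value was held by 6 of 44 groups of aged mice. The groups share cells and hold sparse counts, and a mouse is flagged at any count where the others are at 0. The number flagged is therefore not set against a rate by chance. Ccl5 over all cells was 169.7 CPM in Aged A, against 81.02 to 90.0 CPM in the other 3 aged mice. Gzmb over all cells was 6.69 CPM in Aged A, against 2.33 to 2.71 CPM. Cd8a was 198.6 CPM in all immune cells and 404.7 CPM in the lymphocytes of Aged C, where the other 3 lay between 20.8 and 35.8 CPM and between 50 and 60.1 CPM. These Cd8a values rest on 25 UMIs in the 4 aged mice together. Gzma in Mb macrophages was 13.1 CPM in Aged A, from 1 UMI, and 0 in the others. Ncr1 in T and B cells was 79.0 CPM in Aged C, from 2 UMIs, and 0 in the others.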

How the results depend on the processing

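Of the log2 fold changes of single genes under the alternatives, 430 kept direction and side of the threshold, 16 passed it, 19 fell short of it and 29 changed sign. The number of genes called kept within 1.5 times in 151 of 178 cases. These counts include cases that could not change sign or lose a call. Taking away the fold minimum reused the main fit. Where it could be fitted, the minimum of 10 cells per mouse dropped mice in lymphocytes only. It was 9 in all immune cells with no filter on low counts, 1 in lymphocytes and 1 in fibroblasts with no filter, and 2 in pericytes. In NK cells it was 1 with DESeq2, in AV cells 1 with DESeq2 and with no filter, and in Mb macrophages 0 without Aged C and D. With 1 mouse left out it ranged from 0 to 1 in all cells, AV cells, myoepithelial cells and Mb macrophages and from 0 to 2 in NK cells.

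With the label letter as a replicate block, 0 genes were called in all cells, 3 in NK cells and 1 in AV cells, and the log2 fold change of Gzmb in all cells was 0.15, of Gzma in T and B cells −0.31 and of Ccl5 in myoepithelial cells 0.063. The letters name different animals, and same-lettered deviations correlated at −0.048, −0.114 and −0.128 over all cells and at 0.317, 0.322 and 0.027 in lymphocytes, so the letters were not taken to pair the mice.

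Other changes of sign were Cd3g in lymphocytes at 0.10 with at least 10 cells per mouse and without Aged C and D, Gzma in T and B cells at −5.73 without these mice, and Ccl5 in myoepithelial cells at 0.22 with DESeq2, 0.10 with no filter and 0.0046 without doublets. With 1 mouse left out the log2 fold change ranged from −0.56 to 0.56 for Gzmb, −0.17 to 0.24 for Cd3e and −0.05 to 0.74 for Gzma in all cells, −0.14 to 0.79 for Gzmb and −0.30 to 0.024 for Cd3g in lymphocytes, −0.26 to 0.98 for Nkg7 in NK cells and −0.61 to 2.11 for Gzma in T and B cells. For Ccl5 it ranged from −10.41 to 2.17 in dendritic cells, −0.33 to 2.25 in myoepithelial cells, −0.36 to 0.77 in HS cells and −1.45 to 1.02 in vascular endothelial cells. The −10.41 is no measured fold, as it sets 1 aged mouse with 0 Ccl5 UMIs against the young mice. As a share of all cells, NK cells differed by −0.243 percentage points (aged minus young), and on log-odds with 0.5 cells added the differences in the share of immune cells were 1.00 for NK cells and 2.77 for T and B cells (both adjusted permutation p = 0.0286). The causes were not tested. A fit with at least 10 cells per mouse was not possible in NK cells, T and B cells, Mb macrophages or dendritic cells, which have too few such mice. The depth, with 10 aged NK cells in the test and 22 aged Mb cells, limits what could be called.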
